A study of Mus musculus with 6 samples.

Results

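Major histocompatibility complex (MHC) class II genes were followed in intestinal CCR6+ group 3 innate lymphoid cells (ILC3s) with and without an intact gene for RANKL. The set holds 10 genes, of 19938 genes tested by gene in all. They were chosen as the probe sets that the platform annotation maps to the class II chains, the invariant chain, the peptide editors and the class II transactivator. Of the 10, 8 had a probe set of their own. The remaining 2, H2-DMb1 and H2-DMb2, shared 1 probe set, whose values belong to neither gene alone.

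MHC class II molecules are pairs of an alpha and a beta chain that carry peptides from the endosomal route to the cell surface, where CD4+ T cells read them. New pairs assemble on the invariant chain, which is cut by proteases until the editor H2-DM exchanges its last fragment for a peptide, while H2-DO restrains H2-DM. The transactivator Ciita, recruited by a fixed set of promoter-bound proteins, switches on the genes of the peptide-binding class II chains. Intestinal ILC3s are known to carry MHC class II without the usual set of costimulatory ligands.

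The cells were sorted from the small intestinal lamina propria of C57BL/6 mice (no age is given) that all carried floxed alleles of Tnfsf11, the gene for RANKL. The control group (Tnfsf11fl/fl) holds 3 arrays. The RANKL-deficient group (RorccreTnfsf11fl/fl), with a Cre transgene added to the same floxed alleles, holds 3 arrays. The control labels name no Cre, so an effect of Cre and an effect of the deletion cannot be told apart. The labels give no number of mice per sample, so the p-values reflect only how far these 6 samples scatter, and that scatter may be technical. Each array gives 1 log2 value per probe set, made by the authors with RMA, and a difference of 1 is a 2-fold change.

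Array medians lay between 5.07 and 5.15 on the log2 scale. Control arrays 1 and 2 stood apart, with mean correlations to the other arrays of 0.960 and 0.970 across genes, against 0.975 to 0.977 for the other 4 arrays. The 12 measured lineage genes of ILC3s read 6.28 to 12.44 over all arrays, with 7 higher and 5 lower means and 0 past the adjusted threshold by limma. Cxcr5, a chemokine receptor, differed by 0.85 (limma adjusted p = 0.377), with control arrays at 8.91 to 9.41 and RANKL-deficient arrays at 9.76 to 10.12. Thy1 was also wholly higher (difference 0.21), as 5.28% of all genes were, and Rora wholly lower (−0.12), as 9.08% were. Il7r, the interleukin-7 receptor chain, differed by −0.02. Across all genes, 1 passed the adjusted threshold of 0.05 (0.00502% of those tested by limma with Benjamini-Hochberg adjustment), and it is not a class II gene.

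Proximal promoters of class II genes can carry the sites that the transactivator complex reads. Those available here are shown as a view of the set outside the arrays. In RefSeq windows of GRCm38.p6, from 250 bases before to 50 after a start site, 7 of the 10 genes had a window, 8 windows in all. H2-Ab1, Cd74 and Ciita had none, so their promoters were not read. The Y box ATTGG, the site of NF-Y, was present on either strand in 7 of the 8 windows, against 37.4% of all 32851 windows. The X box core AGCAACNG was present in 1 of the 8, H2-Eb1, against 5.14% of all. A shorter core, GCAAC, was chosen after these sequences were seen. GCAAC followed by ATTGG within 40 bases on the same strand occurred in 4 of the 8 windows, against 1.76% of all windows. The gap between the motifs was 25 bases in H2-Ob, 27 in H2-Eb1, and 28 in H2-Aa and H2-Oa. The stretches below run from 50 bases before the Y box to 10 after it, 5′ to 3′ on the strand of the gene. Capitals mark the shorter X box core, the Y box and TGACG. The last is a cyclic AMP element core that stands on either strand in 20.8% of all windows and, among the members, in H2-Aa. All lie upstream of the start site, and the first base of the Y box stands 43 to 90 bases from it. The duplicated genes H2-DMb1 and H2-DMb2 are shown because they hold the Y box without GCAAC in this stretch. A window of H2-DMa also holds the Y box without GCAAC, farther out at 198 bases from its start site, and is not shown.
H2-Aa (chr17:34287857-34287921, minus strand): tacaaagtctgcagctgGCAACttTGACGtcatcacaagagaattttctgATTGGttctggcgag
H2-Eb1 (chr17:34305758-34305822, plus strand): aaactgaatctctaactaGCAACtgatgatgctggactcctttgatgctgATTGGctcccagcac
H2-Oa (chr17:34092286-34092350, plus strand): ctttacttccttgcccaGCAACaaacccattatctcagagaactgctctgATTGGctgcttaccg
H2-Ob (chr17:34238798-34238862, plus strand): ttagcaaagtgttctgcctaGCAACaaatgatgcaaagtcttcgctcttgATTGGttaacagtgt
H2-DMb1 (chr17:34153080-34153144, plus strand): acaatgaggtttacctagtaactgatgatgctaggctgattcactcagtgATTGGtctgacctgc
H2-DMb2 (chr17:34145109-34145173, plus strand): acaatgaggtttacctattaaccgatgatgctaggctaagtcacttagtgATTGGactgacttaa

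None of the 8 class II genes tested by gene passed the adjusted threshold. By limma's unadjusted p under 0.05, 2 of the 8 did (Cd74 and H2-Oa), both lower in RANKL-deficient cells, where 3.9% of all genes were lower by this rule. The groups did not overlap for 1 of the 8, Cd74, where 9.08% of all genes lay wholly lower, so this count stands near the background. Which members had an unadjusted p under 0.05 changed with the processing and with the arrays. With all 6 arrays, it was Cd74 alone (lower) after median centring (2.75% of all genes lower) and with the trend and robust options (4.53%). Cd74 was also alone among genes above the median (2.83% of those genes lower) and with all probe sets tested (3.36%). Without control array 1, it was H2-Oa alone (lower, as 3.91% of all genes), and likewise without control arrays 1 and 2 (3.54%). Without control array 2, they were Cd74 and H2-Ob (both lower, as 3.33%). Without control array 3, Cd74 was lower (7.37%) and H2-DMa higher (6.74%). Without RANKL-deficient array 1, Cd74 was lower (2.39%) and H2-Aa higher (3.31%). Cd74 stood alone without RANKL-deficient array 2 (2.54%), and Cd74 and H2-Oa were both lower without RANKL-deficient array 3 (2.4%). The members had 6 lower and 2 higher means, with a median log2 difference of −0.20, beside a median of −0.05 over all genes and 60.5% of all genes with a lower mean. The median of the members was −0.03 without RANKL-deficient array 1, −0.31 without RANKL-deficient array 2, −0.13 without control array 3 and −0.41 without control arrays 1 and 2.

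**Figure D1:**
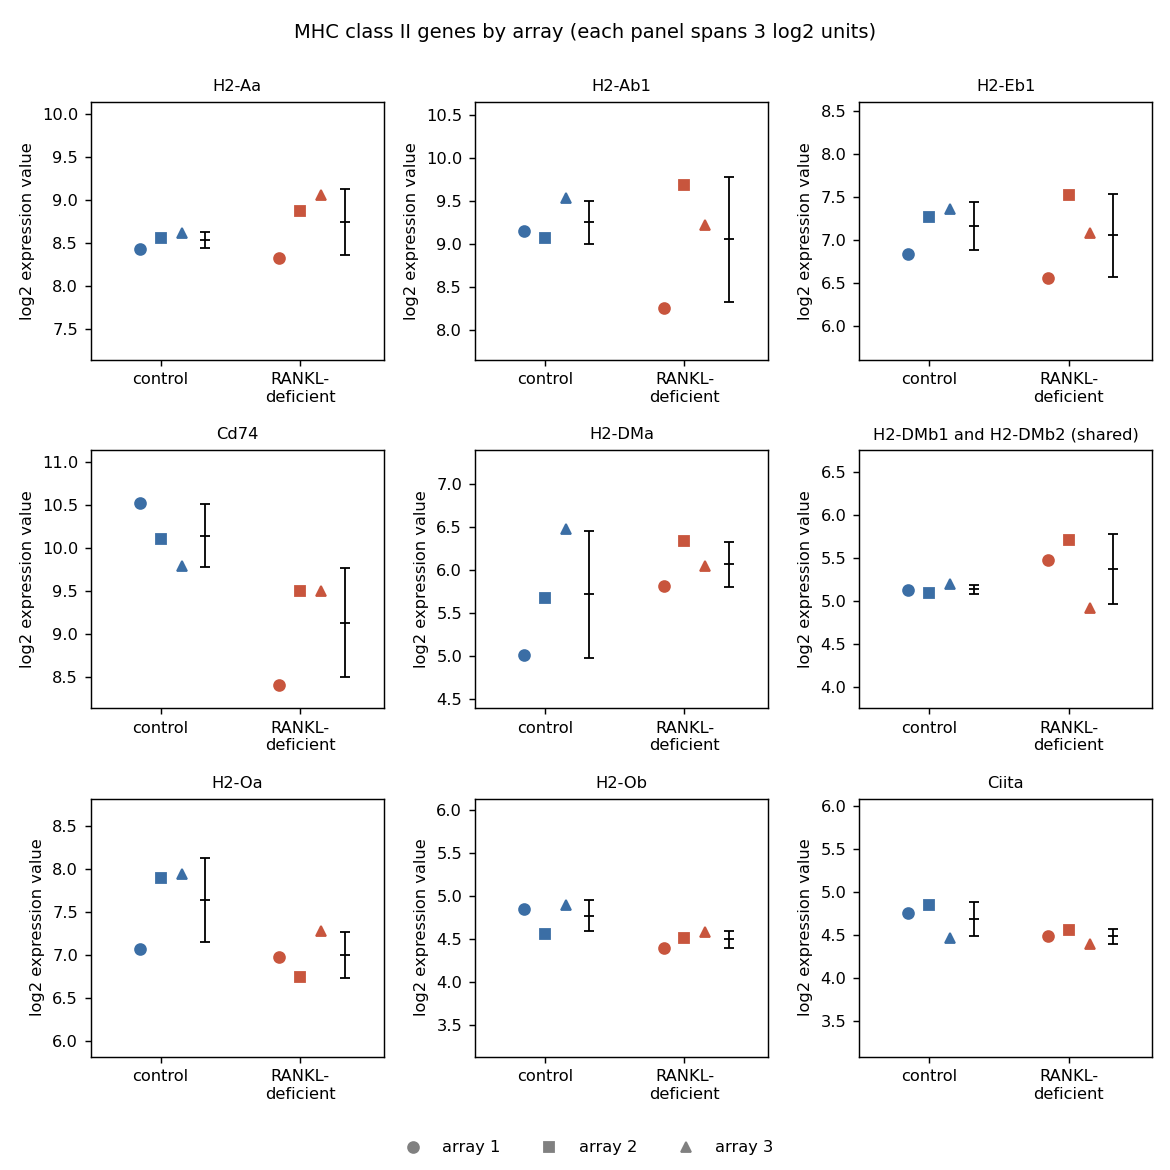
Log2 expression values of the 8 class II genes and of the probe set shared by H2-DMb1 and H2-DMb2, on each of the 3 control arrays (blue) and 3 RANKL-deficient arrays (red), with the mean and SD of each group beside the points. Each panel spans the same 3 log2 units, and only for Cd74 do the groups not overlap (9.79 to 10.52 against 8.40 to 9.49).

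The groups overlapped for all 3 peptide-binding chains, and none passed the adjusted threshold by limma. H2-Aa encodes the alpha chain of I-A, the main class II molecule of C57BL/6 mice. It read 8.44, 8.57 and 8.62 on control arrays 1, 2 and 3, and 8.32, 8.87 and 9.06 on RANKL-deficient arrays 1, 2 and 3. The highest and the lowest value both came from RANKL-deficient arrays. RANKL-deficient minus control came to 0.21 (95% confidence interval from −0.27 to 0.69, limma adjusted p = 0.782). It was 0.42 without RANKL-deficient array 1 and 0.058 without RANKL-deficient array 3.

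H2-Ab1 encodes the beta chain that pairs with it. It read 9.16, 9.07 and 9.54 on the control arrays and 8.26, 9.69 and 9.22 on the RANKL-deficient arrays. RANKL-deficient array 1 stood well below the other 5 arrays, and array 2 of the same group was the highest. The group means differed by −0.20 (interval from −1.03 to 0.63, limma adjusted p = 0.878), and it was 0.20 without RANKL-deficient array 1.

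H2-Eb1 encodes the beta chain of I-E, whose alpha chain gene is not expressed in C57BL/6 mice. It read 6.83, 7.27 and 7.36 on the control arrays and 6.55, 7.52 and 7.08 on the RANKL-deficient arrays. The order of the RANKL-deficient arrays was that seen for H2-Ab1, with array 1 lowest and array 2 highest. The group means differed by −0.11 (interval from −0.73 to 0.52, limma adjusted p = 0.92), and it was 0.14 without RANKL-deficient array 1. The interval of H2-Eb1 still holds changes as large as 1.66-fold lower and 1.44-fold higher.

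Cd74 encodes the invariant chain, the chaperone that fills the peptide groove during transport. It read 10.52, 10.10 and 9.79 on control arrays 1, 2 and 3, and 8.40, 9.49 and 9.49 on RANKL-deficient arrays 1, 2 and 3. All control arrays lay above all RANKL-deficient arrays, and the nearest values of the groups were 9.79 and 9.49. The means were 10.14 ± 0.37 (SD, n = 3) and 9.13 ± 0.63 (SD, n = 3), a difference of −1.01 (SE 0.33, interval −1.80 to −0.22), or 2.01-fold. This did not pass the adjusted threshold (limma adjusted p = 0.563, from 0.296 to 0.905 over the alternatives), and 680 genes had a smaller p. By exact permutation of the arrays (two-sided), p was 0.1, the smallest that 3 arrays against 3 can give. Leaving out RANKL-deficient array 1 gave −0.64 and leaving out control arrays 1 and 2 gave −0.66, both over 1.5 times smaller, and −0.82 without control array 1.

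**Figure D2:**
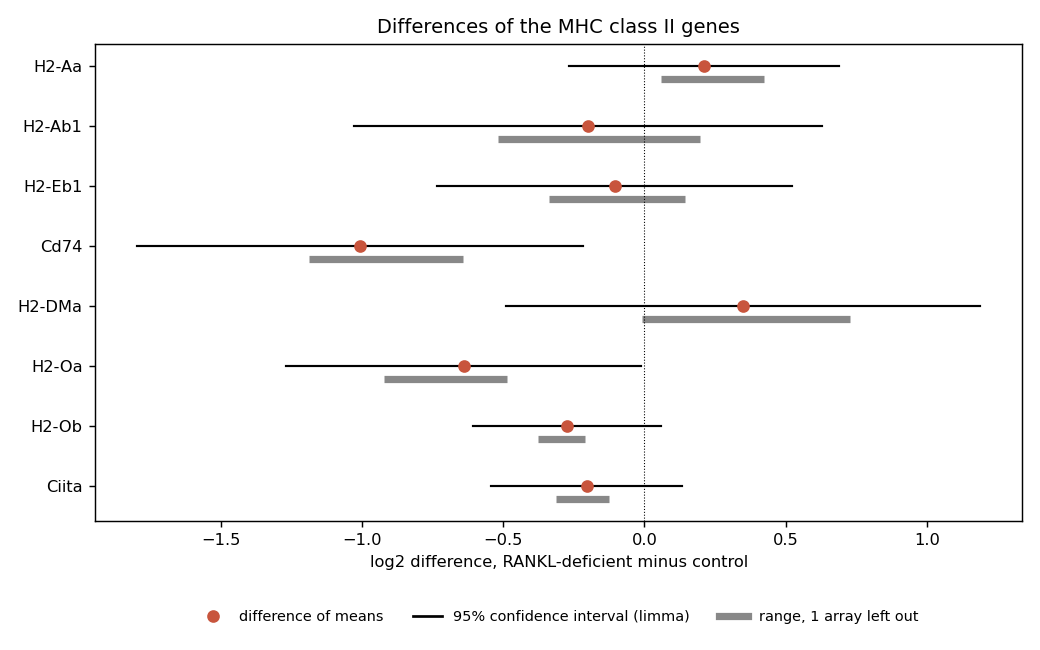
Log2 difference, RANKL-deficient minus control, for each of the 8 class II genes (points), with the 95% confidence interval of limma (thin lines) and the range when 1 array is left out in turn (grey bars). Cd74 has the largest difference of the 8, at −1.01, and the ranges of H2-Ab1, H2-Eb1 and H2-DMa reach both sides of 0.

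Cd74 was set against the chains it escorts within each array. The mean of the H2-Aa, H2-Ab1 and H2-Eb1 values was 8.32 ± 0.18 in control against 8.28 ± 0.51 in RANKL-deficient cells (SD, n = 3 each), a difference of −0.03. The Cd74 value minus this mean, set to 0 at its average over the 6 arrays, was 1.04, 0.47 and −0.05 on control arrays 1, 2 and 3. It was −0.64, −0.53 and −0.29 on RANKL-deficient arrays 1, 2 and 3. Every control array therefore lay above every RANKL-deficient array, by 0.24 at the nearest pair and by 0.97 on average. The group difference ranged from −1.24 to −0.70 when 1 array was left out. This combination was formed after the values were seen and carries no test. It restates the separation of Cd74 noted above, and the control arrays alone spread from −0.05 to 1.04.

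**Figure D3:**
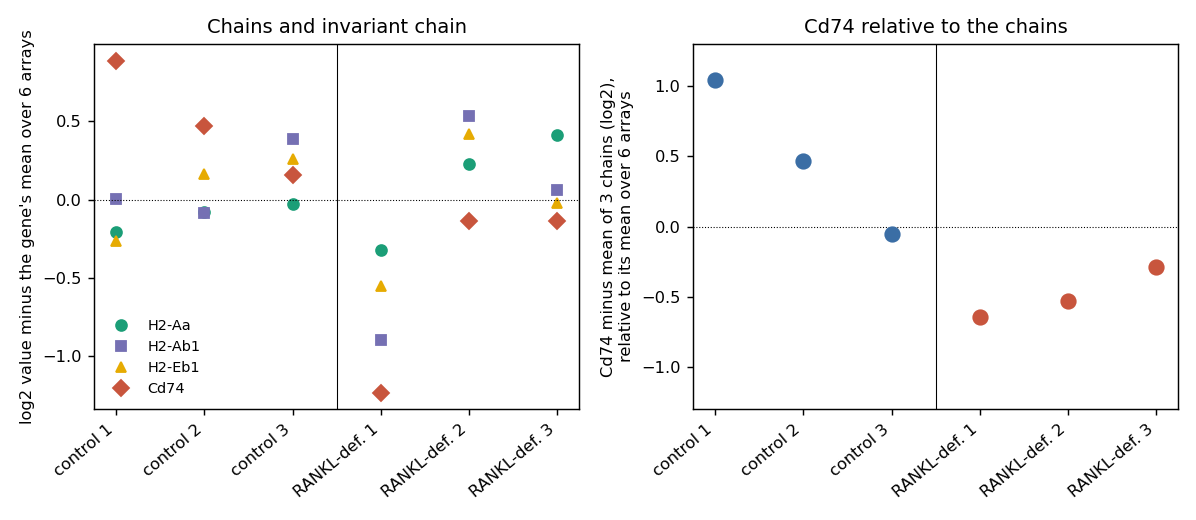
Left, log2 values of H2-Aa, H2-Ab1, H2-Eb1 and Cd74 on each array after subtraction of each gene's mean over the 6 arrays. Right, the Cd74 value minus the mean of the 3 chains, relative to its mean over the 6 arrays, which runs from −0.05 to 1.04 on the control arrays and from −0.64 to −0.29 on the RANKL-deficient arrays.

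H2-DMa encodes the alpha chain of the peptide editor H2-DM. It read 5.01, 5.68 and 6.48 on the control arrays and 5.82, 6.34 and 6.06 on the RANKL-deficient arrays. The control arrays alone spanned 1.47 and enclosed the RANKL-deficient group. The group means differed by 0.35 (interval from −0.49 to 1.19, limma adjusted p = 0.794), and −0.0074 without control array 1.

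The probe set shared by H2-DMb1 and H2-DMb2, the duplicated genes of the H2-DM beta chain, read 5.12, 5.09 and 5.19 on the control arrays. On the RANKL-deficient arrays it read 5.47, 5.71 and 4.92, on both sides of the control values. Its group means differed by 0.23 (interval from −0.30 to 0.76, limma adjusted p = 0.799 over all probe sets).

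H2-Oa encodes the alpha chain of H2-DO, which restrains H2-DM. It read 7.07, 7.90 and 7.95 on the control arrays and 6.97, 6.74 and 7.28 on the RANKL-deficient arrays. Control arrays 2 and 3 were above all RANKL-deficient arrays, whereas control array 1 lay among them. The means were 7.64 ± 0.49 (SD, n = 3) and 7.00 ± 0.27 (SD, n = 3), a difference of −0.64 (SE 0.27, interval −1.27 to −0.01, limma adjusted p = 0.607), and it ranged from −0.92 to −0.49 when 1 array was left out.

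H2-Ob encodes the partner beta chain of H2-DO. It read 4.84, 4.56 and 4.89 on the control arrays and 4.39, 4.51 and 4.57 on the RANKL-deficient arrays, so that control array 2 lay within the range of the other group. The group means differed by −0.27 (interval from −0.61 to 0.06, limma adjusted p = 0.651). Both H2-DO genes thus had lower means in RANKL-deficient cells without passing the test.

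Ciita, the transactivator, read 4.75, 4.84 and 4.46 on the control arrays and 4.49, 4.56 and 4.39 on the RANKL-deficient arrays. Control array 3 lay inside the RANKL-deficient range. The group means differed by −0.20 (interval from −0.54 to 0.13, limma adjusted p = 0.72), and it was 0.015 without control arrays 1 and 2. Ciita and H2-Ob had control means under the all-gene median of 5.15. The arrays came with no measure of background, so differences of these dim genes may be understated.

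RANKL-deficient array 1 gave the lowest value of the 6 arrays for 5 of the 8 members (H2-Aa, H2-Ab1, H2-Eb1, H2-Ob and Cd74), against 18.2% of all genes. The array was also lowest for 7 of 9 measured monocyte and macrophage markers, named here after their values were seen. Cd68, a lysosomal glycoprotein of macrophages, read 4.52 there against 4.80 to 6.50 on the other arrays, and Cd14, the endotoxin co-receptor, read 4.50 against 4.81 to 6.38. The mean log2 value of the monocyte and macrophage list was 4.84 on this array, 5.47 and 5.56 on the other RANKL-deficient arrays and 5.35 to 5.49 on the control arrays. Of 8 epithelial markers, 4 were lowest on it, and the mean log2 value of that list was 4.63 there against 4.99 to 5.19 on the other arrays. The other marker lists did not share this. The array was lowest for 2 of 9 B cell, 2 of 10 dendritic cell and 0 of 7 T cell markers measured. Among the ILC3 lineage genes it was lowest for 1 of 12. The part of these markers in the class II values was not tested. In bulk samples, fewer cells of a type and less RNA per cell cannot be told apart.

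Across the 6 arrays, H2-Ab1 and H2-Eb1 followed each other most closely of the 28 pairs of members (Pearson r = 0.89 over 6 arrays that include both groups, given as a description). H2-Aa had r = 0.63 with H2-Ab1 and r = 0.61 with H2-Eb1. Cd74 had r = 0.73 with H2-Ob, 0.63 with Ciita and 0.58 with H2-Ab1, but 0.08 with H2-Aa. H2-DMa had negative values with Cd74 (−0.41) and Ciita (−0.65). The members therefore did not form 1 shared profile over these arrays.

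The genes most like the mean centred profile of H2-Aa, H2-Ab1, H2-Eb1 and Cd74 were ranked by root-mean-square distance over the 6 arrays, among 6041 genes with an SD of at least 0.3. The nearest was Faap100, a component of the Fanconi anaemia core complex, at a distance of 0.076 log2 units, against a median of 0.53. Next came Zfp456 (0.100), Gbp2b (0.101), Aar2 (0.107) and Ifi207 (0.115). The other 5 were Dsg2, Uty, Mtrf1l, Ap3s2 and Mpnd, at 0.115 to 0.141. All 10 had their lowest value on RANKL-deficient array 1. The profile itself was lowest there (−0.75), so ranking by distance from it favours such genes. For Faap100 that was 5.55, against 6.16 to 6.42 on the other arrays. Of the genes averaged into the profile, H2-Ab1 stood at 0.176, H2-Eb1 at 0.190, H2-Aa at 0.283 and Cd74 at 0.443. The profile thus follows Cd74 poorly. H2-DMa, which is outside the profile, stood at 0.54.

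Of 7 genes for proteins that bind the class II promoter, 0 passed the adjusted threshold by limma and 0 had an unadjusted p under 0.05, with 5 higher and 2 lower means and a median of 0.10. Nfyb, an NF-Y subunit that binds the Y box, read 6.56, 5.45 and 6.97 on the control arrays and 7.07, 7.51 and 6.75 on the RANKL-deficient arrays, a difference of 0.78 (limma adjusted p = 0.646). Its control array 2 was far below the rest, and without it the difference was 0.35. Nfya, the subunit that contacts the CCAAT bases, differed by −0.23, and Creb1, which binds cyclic AMP elements, by 0.19. Creb1 was at 0.013 without control array 1 and 0.32 without control array 2. Rfxank, a subunit of the X box factor RFX, differed by −0.11 (limma adjusted p from 0.684 to 0.856 for these 3).

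Along the route from interferon-gamma to Ciita, 6 of 7 measured genes had higher means, with a median of 0.25, and 0 passed the adjusted threshold by limma. By limma's unadjusted p, 1 passed higher, where 4.25% of all genes did. This was Usf1, a factor that binds an E box of Ciita, at 4.32, 4.06 and 4.29 on the control arrays and 4.59, 4.66 and 4.76 on the RANKL-deficient arrays (difference 0.45, limma adjusted p = 0.513). Its groups did not overlap, as for 5.28% of all genes in this direction. The control mean of Usf1, 4.23, lay under the all-gene median of 5.15, so the caution on dim genes covers it as well. Irf8, an interferon regulatory factor, differed by 0.34 (0.22 without control array 3), and the kinase gene Jak1 by −0.01.

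The list for transport, cleavage and turnover of class II held 11 genes, with 5 higher and 6 lower means, a median of −0.02 and 0 past the adjusted threshold by limma. Its unadjusted p was under 0.05 for 2 higher genes and 1 lower gene, where 4.25% of all genes were higher and 3.9% lower by this rule. Ctss encodes cathepsin S, the protease that makes the last cuts of the invariant chain. It read 9.91, 9.59 and 9.71 on the control arrays and 9.28, 9.31 and 9.43 on the RANKL-deficient arrays (difference −0.40, SE 0.13, limma adjusted p = 0.564). Its groups did not overlap, where 9.08% of all genes lay wholly lower. Ctsd, the aspartic protease cathepsin D, differed by 0.69, and Ifi30, the lysosomal thiol reductase, by 0.71 (limma adjusted p = 0.593 and 0.607). Both groups overlapped for Ctsd and Ifi30. Ctsl, cathepsin L, differed by −0.33. With 1 array left out, Ctsd ranged from 0.45 (without RANKL-deficient array 2) to 0.90, and Ifi30 from 0.44 (without control array 1) to 1.05. Ctsl ranged from −0.60 (without RANKL-deficient array 3) to −0.18 (without RANKL-deficient array 2).

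Among 8 costimulatory ligands, 3 had higher and 5 lower means, with a median of −0.14, 0 past the adjusted threshold by limma and 2 with an unadjusted p under 0.05, both lower, where 3.9% of all genes were. They were the ligands of the inhibitory receptor PD-1. Pdcd1lg2 read 5.22, 5.38 and 5.37 on the control arrays and 4.21, 4.89 and 4.62 on the RANKL-deficient arrays (difference −0.75, SE 0.19, limma adjusted p = 0.423). Its RANKL-deficient mean of 4.57 lay under the all-gene median of that group, 5.09. Cd274 read 6.36, 6.71 and 6.93, and then 6.33, 6.09 and 6.08 (difference −0.50, limma adjusted p = 0.582). In both genes every RANKL-deficient array was below every control array, as for 9.08% of all genes, and for Cd274 by 0.03 at the nearest pair. Cd40 and Tnfsf4 differed by 0.12 and 0.22.

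Genes of MHC class I presentation, the parallel pathway for cytosolic peptides, had 8 higher and 3 lower means of 11 measured, with a median of 0.12 and 0 past the adjusted threshold by limma. By unadjusted p, 3 were higher (4.25% of all genes) and 0 lower (3.9%), and 4 had wholly higher RANKL-deficient arrays (5.28%). Psmb9, an immunoproteasome subunit encoded within the class II region, read 8.44, 8.17 and 9.14 on the control arrays and 9.63, 9.79 and 9.72 on the RANKL-deficient arrays (difference 1.13, SE 0.25, limma adjusted p = 0.396). Psmb10, the third such subunit, differed by 0.71 (limma adjusted p = 0.434). With 1 array left out, Psmb9 ranged from 0.92 to 1.41 and Psmb10 from 0.58 to 0.86. Without control arrays 1 and 2, Psmb9 differed by only 0.57 and Psmb10 by 0.42. Tapbp and Erap1, which load and trim class I peptides, differed by −0.09 and −0.02.

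**Figure D4:**
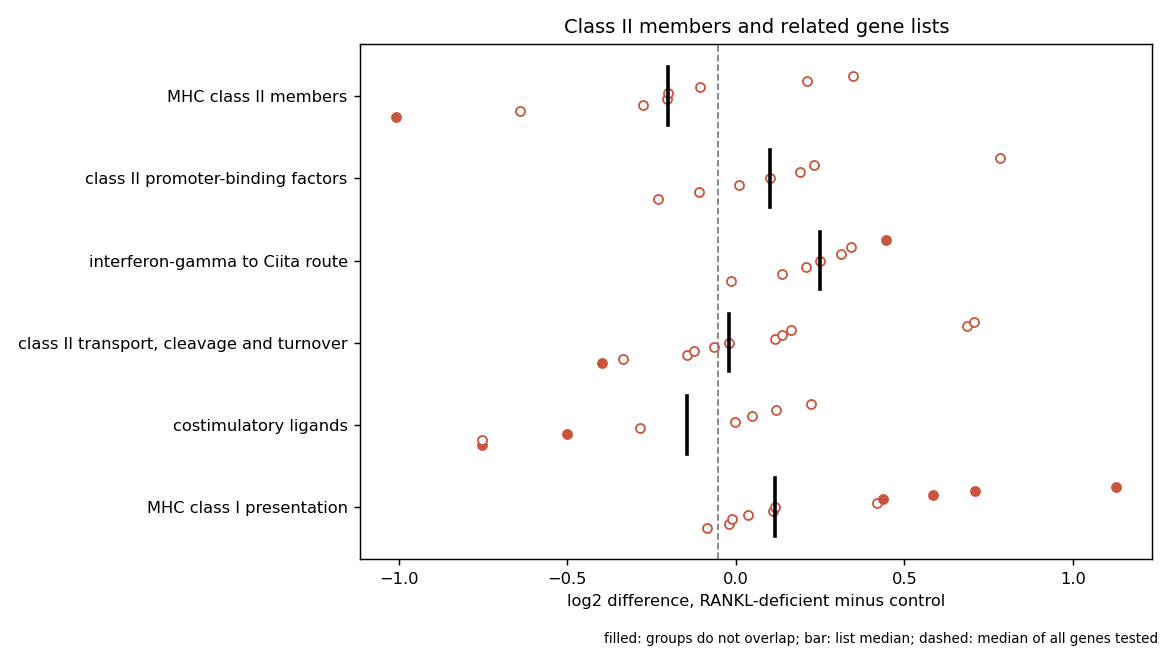
Log2 difference, RANKL-deficient minus control, of each measured gene in the class II set and in 5 related lists. Filled points are genes whose groups do not overlap, bars are list medians (from −0.20 for the class II members to 0.25 for the interferon-gamma route) and the dashed line is the median of all genes, −0.05.

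The class II region on chromosome 17 interleaves both pathways. From H2-Oa to H2-Eb2 in RefSeq order, 6 class II members and 6 other protein-coding genes were measured. Of the 6 members, 4 had lower means (median −0.15), and 1 had a limma unadjusted p under 0.05, in the lower direction (3.9% of all genes). Of the 6 other genes, 5 had higher means (median 0.29), 2 of them with an unadjusted p under 0.05 (4.25%). These 6 are not all class I genes: H2-Eb2, a class II beta chain gene outside the set, differed by 0.16 and Brd2, a chromatin reader, by −0.23. The neighbours H2-DMa, Psmb9, Tap1, Psmb8, Tap2 and H2-Ob had differences of 0.35, 1.13, 0.42, 0.44, 0.11 and −0.27, in that order. Tap1 and Tap2 form the peptide transporter of class I, and Psmb8 is an immunoproteasome subunit. None of these passed the adjusted threshold (limma adjusted p from 0.396 for Psmb9 to 0.92 for H2-Eb1), and the contrast between the 2 sets of genes was not tested.

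**Figure D5:**
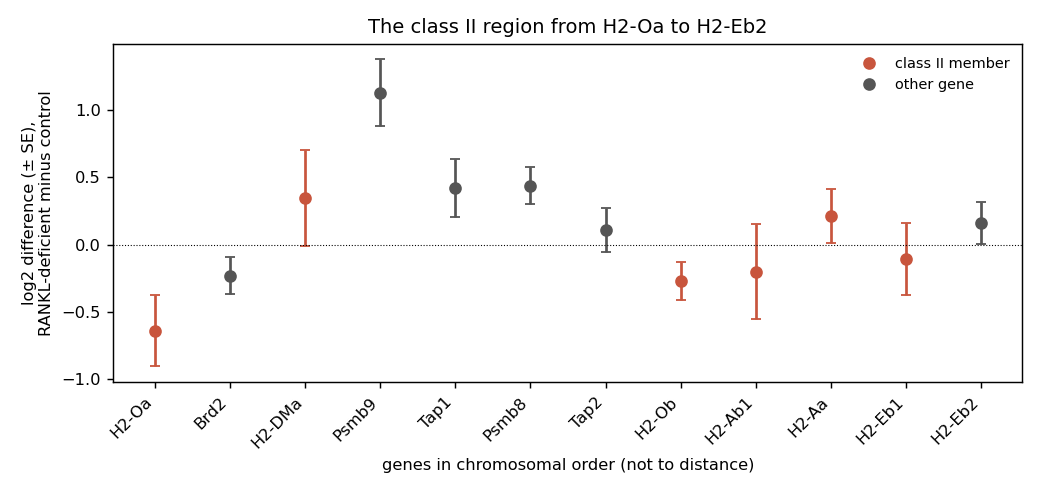
Log2 difference, RANKL-deficient minus control, with its standard error from limma, for the measured protein-coding genes from H2-Oa to H2-Eb2 in chromosomal order, which is not drawn to distance. Psmb9 stands at 1.13 and H2-Oa at −0.64, and the class I genes from Psmb9 to Tap2 lie above 0.

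Markers of other cells that carry class II were read on the same arrays, where no gene is at 0 by construction of the values. Of 9 measured B cell markers, 7 had control means below the median of all genes. The B cell receptor component Cd79a read 2.78 to 3.27 and Ms4a1, the gene for CD20, 2.86 to 3.52 over the 6 arrays. Brighter were Cd79b, the other such component, at 6.75 to 7.67, and the kinase gene Blk at 5.36 to 6.50, both named after their values were seen. The list had 3 higher and 6 lower means. Its summed linear value was 267 to 388 in control and 262 to 323 in RANKL-deficient cells.

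Of 10 dendritic cell markers, 7 had control means below the median of all genes. The list had 4 higher and 6 lower means, and its summed linear value was 355 to 458 in control and 414 to 487 in RANKL-deficient cells. Itgax, the gene for CD11c, was wholly higher in RANKL-deficient cells, as 5.28% of all genes were. It was dim on every array, at 3.85 to 4.01 in control and 4.05 to 4.60 in RANKL-deficient cells. Flt3, a cytokine receptor of dendritic cell precursors, read 4.70 to 5.09.

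Of 9 measured monocyte and macrophage markers, 5 had higher and 4 lower means, and the summed linear value was 432 to 504 in control and 309 to 545 in RANKL-deficient cells. Csf1r, the receptor for macrophage colony-stimulating factor, read 5.64 to 5.67 in control and 5.25 to 5.93 in RANKL-deficient cells. Adgre1, a surface receptor of macrophages, differed by −0.54 (limma adjusted p = 0.582). The part of these cell types in the Cd74 difference was not tested.

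T cell markers had 2 higher and 5 lower means of 7 measured, and Cd3g, a chain of the T cell receptor complex, differed by −1.91 (limma adjusted p = 0.408). It read 7.32, 6.93 and 5.82 on control arrays 1, 2 and 3 and 5.26, 4.20 and 4.89 on the RANKL-deficient arrays. Its groups did not overlap, where 9.08% of all genes lay wholly lower. Cd3e, another chain of this complex, differed by −0.70 (limma adjusted p = 0.618), and its groups overlapped. Cd4, which mouse lymphoid tissue inducer cells can also carry, differed by 0.69 and the adaptor gene Lat by 0.51 (limma adjusted p = 0.523 and 0.546). Both were wholly higher in RANKL-deficient cells, as 5.28% of all genes were. The summed linear value of this list was 1215 to 1324 in control and 1557 to 1699 in RANKL-deficient cells. This sum was carried mainly by Cd4 and Lat, the brightest genes of the list. It does not follow Cd3g and Cd3e, whose means were lower. Epithelial markers had 1 higher and 7 lower means of 8, with a summed linear value of 359 to 516 in control and 246 to 490 in RANKL-deficient cells. The part of either list in the class II values was not tested.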

How the data were processed

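CCR6+ ILC3s were sorted from small intestinal lamina propria after collagenase digestion, and 2 ng of total RNA per sample was amplified for Affymetrix arrays, per the labels' protocols. The authors deposited log2 expression values of 35556 probe sets on 6 arrays, for which the submitters' processing notes name RMA and Affymetrix Expression Console. Their versions and a genome build were not given in the sources used here. RMA evens out the array distributions and would hide a change common to all genes. Precision is limited by the number of arrays.

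Names came from the platform annotation, with symbols updated by Entrez identifier against RefSeq (GRCm38.p6). Of them, 21789 had 1 symbol, 1621 several and 12146 none. The tests covered 19938 genes with 1 symbol, of which 19855 matched RefSeq by identifier. The brightest probe set was taken for the 999 genes with more than 1, and no filter on low values was applied. The comparison used lmFit and eBayes of limma 3.58.1 under R 4.3.3, and its two-sided p-values were adjusted by Benjamini-Hochberg across all genes. Each of the 8 members had 1 probe set.

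The members and lists were chosen with earlier results of these data known. Every member was named, and of each other list up to 2 genes per direction with the smallest unadjusted p, with markers that define other class II-bearing cells. Exceptions are named as such in the text; Il7r and the genes of the class II region were added as well. Likeness used root-mean-square distance of centred profiles. Of the planned genes outside the members, 8 had no probe set of their own and are not analysed here. The limma step was tested on simulated data. Alternatives were 1 array left out in turn, control arrays 1 and 2 left out, the replicate number as a block, other normalizations, a filter on low values, array weights, other eBayes options and other probe set rules.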

Additional observations from a re-analysis of the deposited data

How the results depend on the processing

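No member passed the adjusted threshold by limma under any of the 16 alternatives. The unadjusted count was 2 of 8, both lower, where 3.9% of all genes were lower. It was 1 of 8 (Cd74) with median centring (2.75%), trend and robust options (4.53%) or all probe sets tested (3.36%). Among genes above the median it was 1 of 6 (2.83% of those genes lower). Of 126 member values under the alternatives, 5 changed sign. H2-DMa went to −0.41 and Ciita to 0.015 without control arrays 1 and 2, in a fit that assumes that control array 3 varies like the other group. When 1 array was left out, H2-Ab1 ranged from −0.52 to 0.20, H2-Eb1 from −0.34 to 0.14 and H2-DMa from −0.0074 to 0.73. Cd74 was negative under all 16 alternatives, from −1.19 to −0.64, as was H2-Oa, from −0.95 to −0.49. The cause of these moves was not tested. Of the other genes, Rfxank turned to 0.14 and Tapbp to 0.13 without control arrays 1 and 2. Median centring gave 0.025 for Jak1 and 0.017 for Erap1, and array weights gave −0.060 for Cd40 and 0.013 for Tapbp. With 1 array left out, Rfxank ranged from −0.24 to 0.029, Jak1 from −0.081 to 0.065, Tnfsf4 from −0.033 to 0.45, Cd40 from −0.022 to 0.37, Tapbp from −0.19 to 0.12 and Erap1 from −0.20 to 0.16. These list medians also moved: the interferon-gamma route to 0.14 with array weights, and class I presentation to 0.032 with quantile normalization, 0.18 with array weights and 0.21 with the mean of probe sets. With 1 array left out, the medians ranged from −0.0060 to 0.24 for promoter-binding factors, from 0.19 to 0.36 for the interferon-gamma route and from 0.10 to 0.24 for class I presentation. The count of genes past the adjusted threshold, 1 in all, was 0 to 1 with 1 array left out. It was 0 without control arrays 1 and 2, 0 with all probe sets tested and 2 with the trend and robust options. With the replicate number as a block it was 0. Same-numbered samples had correlations of −0.02, 0.05 and 0.03 for numbers 1, 2 and 3, and differently numbered ones ran from −0.06 to 0.03. Control array 1 correlated best with RANKL-deficient array 3, and control arrays 2 and 3 with their own number. All these correlations were small, so the numbers were not treated as pairs. The number of arrays limits the precision.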

Other observations

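Nlrc5, the class I counterpart of Ciita, was covered by 19 probe sets that did not give 1 answer. Its brightest probe set had a difference of 0.04, and the 19 ran from −0.22 to 1.37, with 14 higher and a median of 0.08. The beta-2-microglobulin gene B2m, whose product is the shared light chain of class I, differed by −0.01 (limma adjusted p = 0.985). Calr, the gene for the chaperone calreticulin, differed by 0.58 (limma adjusted p = 0.633). All RANKL-deficient arrays lay above all control arrays for Calr, as for 5.28% of all genes. Its control array 1 read 8.65 and the other control arrays 9.47 and 9.78. These 3 genes were named after their values were seen.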
